A study of Homo sapiens
Mus musculus with 6 samples.

Results

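The carbonic anhydrase genes expressed in tumour cells and host were followed in HT29 xenografts with and without added laminin alpha 1 chain. They were the genes named CA in the human table and Car in the mouse table, taken with the largest summed signal where a symbol had several entries. The 10 genes described in full were CA1, CA2, CA8, CA9, CA12 and CA13 of the tumour cells and Car2, Car3, Car4 and Car9 of the host, out of 106631 genes in both tables. The whole family, 15 human and 16 mouse symbols, is given beside them.

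HT29 is an established human colorectal adenocarcinoma cell line. It was grown under the skin of nude mice, which lack a thymus, for 4 weeks with no other treatment. The 3 control tumours were HT29 xenografts, and the 3 laminin tumours were HT29 xenografts that overexpressed the mouse laminin alpha 1 chain, a basement membrane protein. The labels do not say which promoter drives the chain, whether the cells were a clone or a pool, or the age and sex of the mice. RNA of the whole tumour was sequenced, so human genes report on the grafted cells, and mouse genes on the host and on the transgene. Mouse Lama1 went from 4.75 to 1077 ppm.

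Carbonic anhydrases are zinc enzymes that turn carbon dioxide and water into bicarbonate and a proton, and back. The cytosolic forms serve gas transport, ion transport and metabolism, a mitochondrial form supplies bicarbonate to biosynthesis, and the forms on the cell surface set the pH outside the cell. CA9 and CA12 are the surface forms known from tumours, and CA9 is a classical target of the hypoxia-inducible factor HIF-1. CA8, CA10 and CA11 resemble the enzymes but lack their activity.

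The tables held 1 value per group and gene, so the group values carry no error between tumours. Levels per tumour, with their SD, could be worked out for some low host genes, among them Car2, Car4 and Car9. Levels are given as parts per 1000000 of the summed signal of a table (ppm). The signal follows the number of reads without regard to transcript length, and each species has its own scale, so levels of different genes are not ranked against each other. Human genes were called at a Benjamini-Hochberg adjusted p under 0.05, computed from the p-values of the authors' test over 25838 tested genes, and mouse genes at an authors' q-value under 0.05 over 14339 tested genes. The epithelial markers EPCAM, CDH1, KRT8, KRT18, KRT19 and VIL1 summed to 6142 and 5849 ppm in the human table, and 0 of these 6 passed the test. In bulk RNA of a whole tumour, fewer cells of a type and less RNA per cell cannot be told apart.

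In the tumour cells, CA12 rose 2.05-fold in laminin tumours, CA2 fell to 38.4% of its control level, and CA1, CA8, CA9 and CA13 did not pass the test. Of the 6 human genes 1 rose and 1 fell, while 8.08% of all tested human genes passed, 5.63% higher and 2.45% lower. In the host, Car3 fell to 3.54% of its control level, and Car2, Car4 and Car9 did not pass the test. Of the 4 mouse genes 1 fell and 0 rose, while 3.54% of all tested mouse genes passed, 2.96% lower and 0.579% higher.

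**Figure D1:**
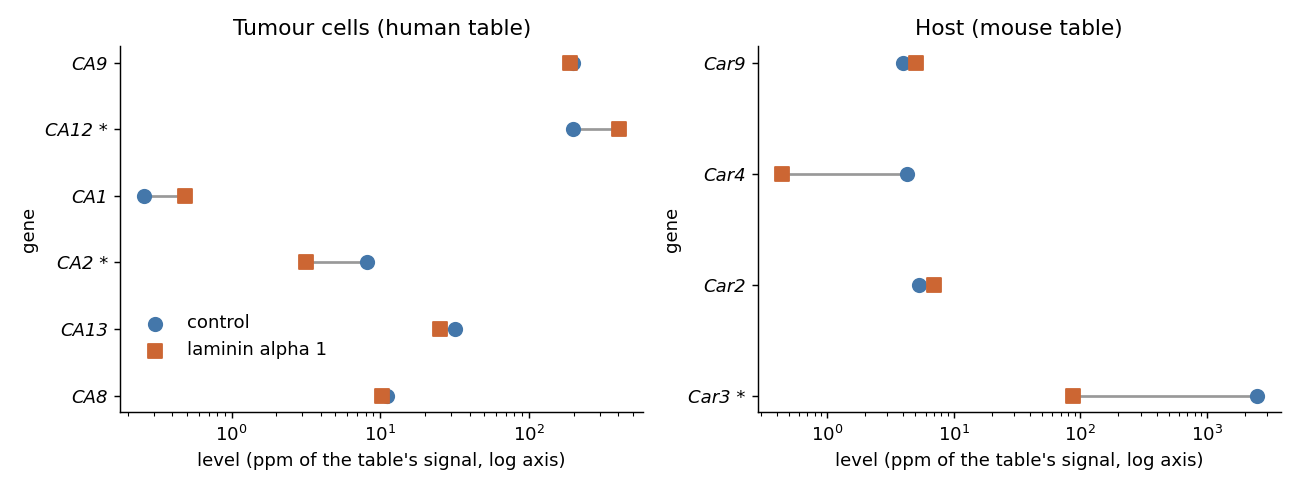
Level of each gene in ppm of its table's signal (log axis) in control tumours (circles) and laminin alpha 1 tumours (squares), 1 group value each, with an asterisk on genes that passed the test. CA12 moved from 198 to 405 ppm and Car3 from 2468 to 87.4 ppm, while the symbols of CA9 and of CA8 almost coincide.

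Of the surface enzymes in the tumour cells, CA12 passed the test and CA9 did not. CA12 (ENSG00000074410, chromosome 15), a transmembrane enzyme with its active site outside the cell, had 198 ppm in the control group and 405 ppm in the laminin group. This was a 2.05-fold rise, a log2 ratio of 1.04, with p = 5e-05 in the authors' deposited table and a Benjamini-Hochberg adjusted p of 0.00121. At the mean worth of 1 read in a group, the CA12 values correspond to about 15155 reads in control and 32193 reads in laminin tumours, summed over the tumours of a group. The log2 ratio of CA12 lay above that of 87.3% of the tested human genes.

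CA9 (ENSG00000107159, chromosome 9) had 198 ppm in the control group and 189 ppm in the laminin group. Its log2 ratio was -0.07, with p = 0.622 in the authors' deposited table and a Benjamini-Hochberg adjusted p of 0.966. CA9 rested on about 15224 reads in the control and 15022 in the laminin group. The difference between the responses of CA12 and CA9 was not tested, because the tables hold no values per tumour for them. CA9 lies in a locus that the authors' table merged with ARHGEF39, CCDC107 and RN7SL22P, and the library protocol in the labels mentions no strand marking. ARHGEF39 was at 26.8 and 23.3 ppm and CCDC107 at 11.9 and 12.8 ppm. How many reads CA9 shares with them was not tested.

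Other genes that low oxygen induces are set beside CA9. Of 24 tested hypoxia genes other than carbonic anhydrases, 12 rose and 0 fell in the tumour cells, against 5.63% and 2.45% of all tested human genes, and 23 ratios were above 1. The median log2 ratio of these genes was 0.45, against 0.00 over all tested human genes. CA9 had -0.07, and CA12, the other surface form known from tumours, had 1.04. Among the called genes were NDRG1, SLC2A1, ALDOA, PGK1, VEGFA and KDM3A, the 6 with the largest signal, which sets no order of expression. The glucose transporter SLC2A1, for example, went from 858 to 1331 ppm, and the glycolytic enzyme gene PGK1 from 941 to 1271 ppm. No test compared CA9 or CA12 with this list.

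Of the cytosolic enzymes in the tumour cells, CA2 fell, and CA1 and CA13 did not pass the test. CA2 (ENSG00000104267, chromosome 8), a very fast and widespread form, went from 8.21 to 3.15 ppm. It fell to 38.4% of the control level, a log2 ratio of -1.38, with p = 5e-05 in the authors' deposited table and a Benjamini-Hochberg adjusted p of 0.00121. About 629.5 reads in control and 250.2 reads in laminin tumours stood behind CA2. Only 4.67% of the tested human genes had a lower log2 ratio.

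CA13 (ENSG00000185015, chromosome 8), another cytosolic form, had 32.0 and 25.1 ppm. Its log2 ratio was -0.35, with p = 0.0162 in the authors' deposited table, and it missed the threshold with a Benjamini-Hochberg adjusted p of 0.144. CA1 (ENSG00000133742, chromosome 8), the abundant form of red cells that is also made by colonocytes, was near the floor of the measurement. It had 0.258 and 0.483 ppm in the control and laminin group, about 19.8 and 38.4 reads. Its log2 ratio of 0.90 did not pass, with p = 0.157 in the authors' deposited table and a Benjamini-Hochberg adjusted p of 0.584.

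CA1, CA2 and CA3 share 1 merged locus in the authors' table, and the values of CA1 were no whole number of reads in either group. CA3, an enzyme of low activity best known from muscle and fat, was measured at 1.87 and 2.55 ppm, and the authors' deposited table gives it a p of 0.303. CA2 thus passed the test and its neighbours CA1 and CA3 did not. CA8 (ENSG00000178538, chromosome 8), the inactive relative that binds the inositol trisphosphate receptor, had 11.1 and 10.3 ppm. Its log2 ratio was -0.11, with p = 0.502 in the authors' deposited table.

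CA1 and CA2 are made by mature cells of the colon surface, and the other colonocyte genes are given beside them. Of 14 tested colonocyte genes 7 rose and 1 fell, where 5.63% and 2.45% of all tested human genes did, with a median log2 ratio of 1.70 against 0.00 over all tested human genes. The adhesion molecule gene CEACAM7 rose 11.0-fold, from 16.6 to 183 ppm, and the fatty acid binding protein gene FABP1 went from 41.8 to 144 ppm. The brush border protease gene MEP1A (14.1 to 43.4 ppm) and CDX2 (19.6 to 67.8 ppm), which encodes a transcription factor of the intestine, rose as well, whereas its relative CDX1 fell from 96.4 to 53.8 ppm. The direction of CA2 was thus that of CDX1 and the opposite of the 7 genes that rose. Lists of this kind were chosen with earlier results of these data known and support no direction.

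The remaining human family members added no further call. In all, 10 of 15 family members were tested, and 1 rose and 1 fell, while 8.08% of all tested human genes passed in either direction. Among them 5 ratios were above and 5 below 1, with a median log2 ratio of 0.08. The mitochondrial CA5B had 4.98 and 5.87 ppm, the inactive CA11 had 2.08 and 2.56 ppm, and the surface enzyme CA14 had 0.486 and 0.298 ppm. CA5B shares its locus with its pseudogene CA5BP1 and is uncertain. For CA4, CA6 and CA7 the values amounted to about 3 reads or fewer per group and were not tested by the authors. CA5A and CA10 were listed at 0 in both groups.

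**Figure D2:**
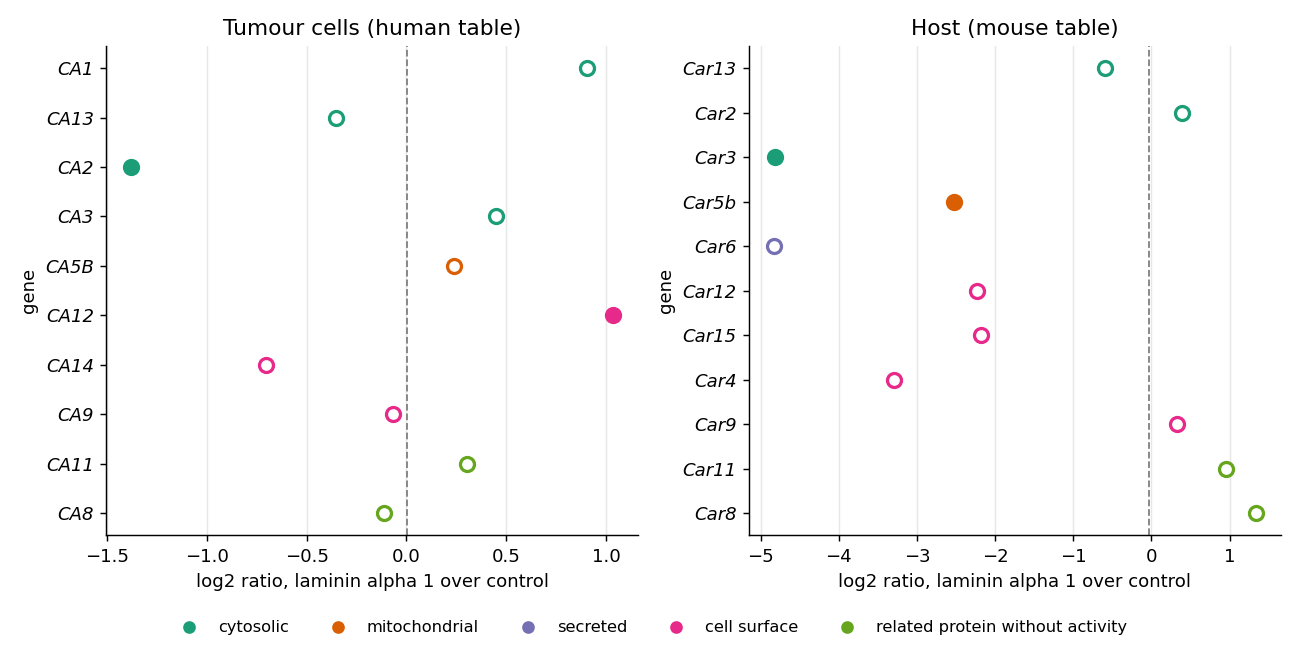
The log2 ratio of laminin alpha 1 over control tumours is plotted for each tested carbonic anhydrase gene with signal in both groups, coloured by the place of the protein. Filled symbols passed the test, and the dashed line is the median of all tested genes. In the human table CA12 (1.04) and CA2 (-1.38) are filled, and in the mouse table Car3 (-4.82) and Car5b (-2.52).

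Bicarbonate and protons made by these enzymes cross the membrane on transporters, which were followed in both species. Of 21 tested transport genes of the tumour cells 6 rose and 2 fell, with a median log2 ratio of 0.19. Of all tested human genes 5.63% rose and 2.45% fell. The sodium bicarbonate cotransporter gene SLC4A4 went from 8.50 to 23.5 ppm, a 2.76-fold rise at the smallest p of the authors' deposited table, 5e-05. The chloride and bicarbonate channel gene CFTR rose from 147 to 232 ppm and the water channel gene AQP1 from 9.06 to 29.2 ppm. Of the monocarboxylate transporters, which carry lactate with a proton, SLC16A3 rose from 61.7 to 119 ppm and SLC16A7 from 3.12 to 6.01 ppm, and SLC16A1 fell from 297 to 197 ppm. These 6 have the largest signal of the 8 called transport genes. The other 2, named after their values were seen, are the chloride and bicarbonate exchanger gene SLC26A3, which rose from 0.221 to 0.967 ppm, and the sodium and proton exchanger gene SLC9A2, which fell from 5.93 to 2.93 ppm.

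In the host, 1 of 14 tested transport genes rose and 1 fell, with a median log2 ratio of 0.02. Of all tested mouse genes 0.579% rose and 2.96% fell. Host Slc16a3 rose from 90.1 to 166 ppm, and its q in the authors' deposited table was 0.0211. Host Slc4a4 fell from 40.1 to 14.6 ppm, and its q in the authors' deposited table was 0.0118. SLC4A4 was therefore called higher in the tumour cells and lower in the host, and SLC16A3 was called higher in both.

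Among the 4 host enzymes, Car3 (mm10 chromosome 3, 14863537 to 14872373) was the one that passed the test. Car3 is a cytosolic enzyme of low activity and a major protein of mouse fat cells and of slow muscle fibres. It went from 2468 to 87.4 ppm. This was 28.2-fold lower, a log2 ratio of -4.82, and its q in the authors' deposited table was 0.00238. About 16130 reads in control tumours and between 344 and 850.2 reads in laminin tumours, whose libraries differ in depth, stood behind these values, too many to separate by tumour, so how evenly the 3 control tumours carried Car3 is not known.

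Markers of fat, muscle and skin moved with Car3. Among all tested mouse genes 2.96% fell and 0.579% rose. Of 10 adipocyte markers 7 fell and 0 rose, and their summed level went from 6099 to 317 ppm, or 5.21% of control. Of 9 tested skeletal muscle markers 7 fell, and the summed level of the list went from 4433 to 716 ppm, or 16.2% of control. The 7 were Ckm, Acta1, Myh4, Myh2, Tnni2, Pvalb and Mylpf, most of them genes of fast fibres. The slow-fibre genes Myh7 and Myl3 were not tested by the authors, with 11, 0 and 0 and 0, 1 and 2 reads in the 3 control tumours and 0, 0 and 0 and 0, 1 and 0 reads in the 3 laminin tumours. Of 9 keratinocyte markers 3 fell, with a summed level of 1639 and 18.0 ppm, and Krt1 was listed at 0 in laminin tumours. All 9 keratinocyte ratios were below 1, but some large ones did not pass. Krt5 had 270 and 1.02 ppm with a q of 0.258 in the authors' deposited table. The adipocyte marker Cfd had 1347 and 21.7 ppm with a q of 0.171. How evenly the control tumours carried these 2 genes is not known. Fibroblast, endothelial and macrophage markers stood at 94.3%, 107% and 112% of control, with 0 of 6, 0 of 8 and 0 of 6 called. The part of these cell types in the fall of Car3 was not tested.

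Car5b (chromosome X, 163976821 to 164028010), the mitochondrial enzyme, was the other host family member to pass. It fell from 74.5 to 12.9 ppm, 5.75-fold lower, and its q in the authors' deposited table was 0.00238. This is also the q of Car3, since both had the smallest p of that table, so it does not rank the 2 genes. The surface enzyme Car12 (chromosome 9, 66713685 to 66766845) was at 16.4 ppm in the control and 3.49 ppm in the laminin group. Its p was 0.00525 and its q 0.111 in the authors' deposited table. Host Car12 thus missed the threshold at a log2 ratio of -2.23, while human CA12 rose. The reads behind Car12 equalled about 0.706% and 0.0559% of those behind CA12 in control and laminin tumours. Whether some of them were human reads was not tested. Cytosolic Car13 (chromosome 3, 14641726 to 14663002) was at 43.4 and 28.9 ppm, and its q in the authors' deposited table was 0.521. Of 12 tested mouse family members 2 fell and 0 rose, while 2.96% of all tested mouse genes fell and 0.579% rose. In 8 of the 12 the ratio was below 1, and the median log2 ratio was -2.20, against -0.03 over all tested mouse genes. Several of these ratios rest on few reads.

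**Figure D3:**
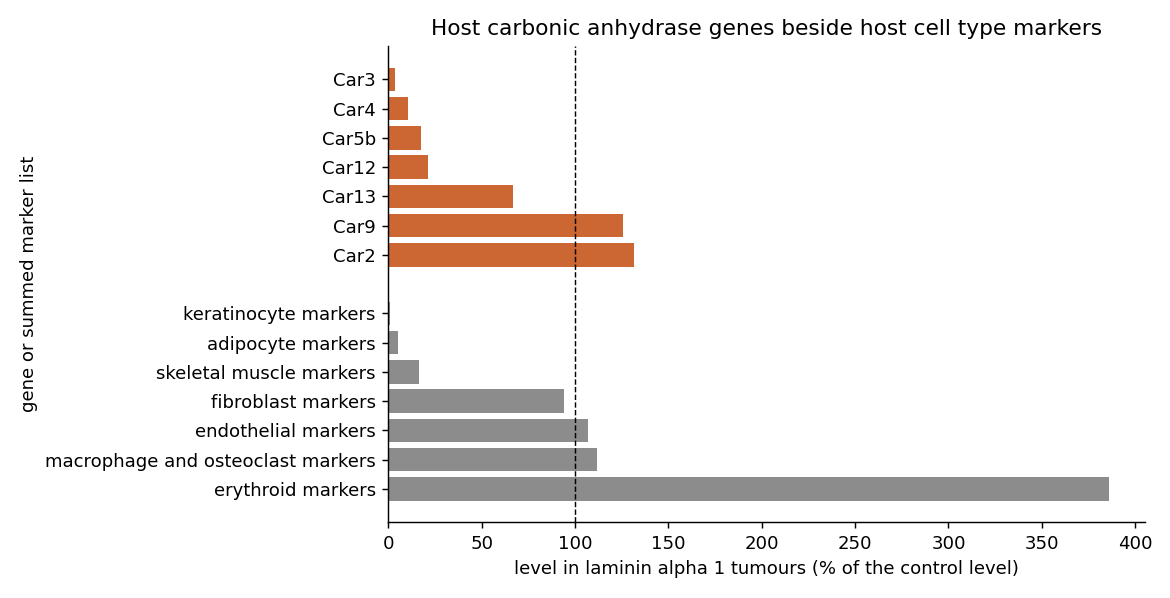
Level in laminin alpha 1 tumours as a percentage of the control level, for 7 host carbonic anhydrase genes and for the summed levels of 7 lists of host cell type markers, with a dashed line at equality. Car3 (3.54%) and Car5b (17.4%) are drawn above the adipocyte (5.21%) and skeletal muscle (16.2%) lists, and Car9 and Car2 lie above the line.

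The low host genes could be followed tumour by tumour. In the mouse table most low group values were a sum of whole reads of the group's 3 tumours, each read weighted by its tumour's read step. The step is larger in a tumour with fewer mouse reads. Where only 1 combination of whole reads gave a value, the reads of each tumour were worked out. The tumours cannot be matched to sample labels and are called A, B and C (control) and D, E and F (laminin), from the largest to the smallest step. One read corresponded to 0.464, 0.458 and 0.455 ppm in A, B and C and to 0.762, 0.506 and 0.309 ppm in D, E and F. Tumour F thus had the most mouse reads. Among the laminin tumours the largest step was 2.47 times the smallest in the mouse table and 1.08 times in the human table. Whether the share of host RNA differed between these tumours was not tested. These reads are an inference from the deposited values, and no test was run on them.

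Car9 (chromosome 4, 43507025 to 43513725), the mouse form of the hypoxia-induced surface enzyme, had 15, 9 and 2 reads in A, B and C and 14, 5 and 6 reads in D, E and F. Its levels were 6.96, 4.12 and 0.910 ppm in the control tumours and 10.7, 2.53 and 1.85 ppm in the laminin tumours. D was the highest and C the lowest, and the groups overlapped. The mean levels of Car9 were 4.00 ± 3.03 and 5.02 ± 4.91 ppm (SD, n = 3 tumours each). Its q in the authors' deposited table was 0.996. Without D the log2 ratio of Car9 turned from 0.33 to -0.87, and without C it turned to -0.14.

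The direction of the Car9 ratio thus turned with 1 tumour left out. The ratio of pooled reads, 26 in control and 25 in laminin tumours, was 0.962 with an exact 95% interval of 0.533 to 1.73, which covers counting error only. Of 25 tested host hypoxia genes 4 rose, namely Slc2a1, Ndrg1, Egln3 and Adm, and 0 fell. Of all tested mouse genes 0.579% rose and 2.96% fell. In the list 17 ratios were above 1 and 8 below. Its median log2 ratio was 0.45, against -0.03 over all tested mouse genes. Host Slc2a1 went from 98.6 to 263 ppm. The reads behind host Car9 equalled 0.171% of those behind human CA9 in control tumours and 0.166% in laminin tumours. Whether some of them were human reads was not tested, for Car9 or for any other host gene.

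Car4 (chromosome 11, 84957753 to 84966054), an enzyme anchored to the outer membrane of capillary endothelium and other cells, had 11, 17 and 0 reads in A, B and C. It had 0, 2 and 1 reads in D, E and F. The levels were 5.10, 7.79 and 0 ppm in control tumours and 0, 1.01 and 0.309 ppm in laminin tumours. A and B stood above all laminin tumours, and C, with 0 reads, overlapped with them, which at this depth allows up to 3 reads.

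The mean levels of Car4 were 4.30 ± 3.96 and 0.440 ± 0.519 ppm (SD, n = 3 tumours each). Its q in the authors' deposited table was 0.709. The ratio of pooled reads was 0.107 with an exact 95% interval of 0.0209 to 0.347 for counting error only. Leaving out 1 tumour at a time gave log2 ratios of -4.80 to -2.54, which were below 0 in each case. Endothelial markers, for comparison, summed to 1239 and 1325 ppm, while adipocyte and skeletal muscle markers fell to 5.21% and 16.2% of control. The part of any cell type in the Car4 values was not tested.

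Car2 (chromosome 3, 14886425 to 14900770), the mouse form of the fast cytosolic enzyme, had 17, 8 and 10 reads in A, B and C and 6, 6 and 44 reads in D, E and F. The levels were 7.89, 3.66 and 4.55 ppm in control tumours and 4.57, 3.04 and 13.6 ppm in laminin tumours. F was far above the others, and D and E lay within or below the control range. The mean levels of Car2 were 5.37 ± 2.23 and 7.06 ± 5.69 ppm (SD, n = 3 tumours each). Its q in the authors' deposited table was 0.984. The log2 ratio of 0.40 turned to -0.50 without F.

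Car2 is abundant in red cells and in osteoclasts. Of the erythroid markers, Alas2 passed the test and rose from 6.73 to 36.4 ppm. Hba-a1 had 20.7 and 39.5 ppm and Hba-a2 had 6.41 and 56.7 ppm. Neither of them passed, with a q of 0.962 and 0.772 in the authors' deposited table. Klf1 was listed at 0 in both groups. The red cell anion exchanger gene Slc4a1 had 5, 0 and 0 reads in A, B and C and 0, 1 and 7 reads in D, E and F. Summed, these 5 erythroid markers had 34.6 and 133 ppm. Of the macrophage and osteoclast markers, Ctsk had 355 and 375 ppm and Acp5 had 129 and 101 ppm in control and laminin tumours. Neither passed the test. The part of red cells and osteoclasts in the Car2 values was not tested. Car1, the red cell and colon form, had 1 read in B and 0 reads in each other tumour.

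**Figure D4:**
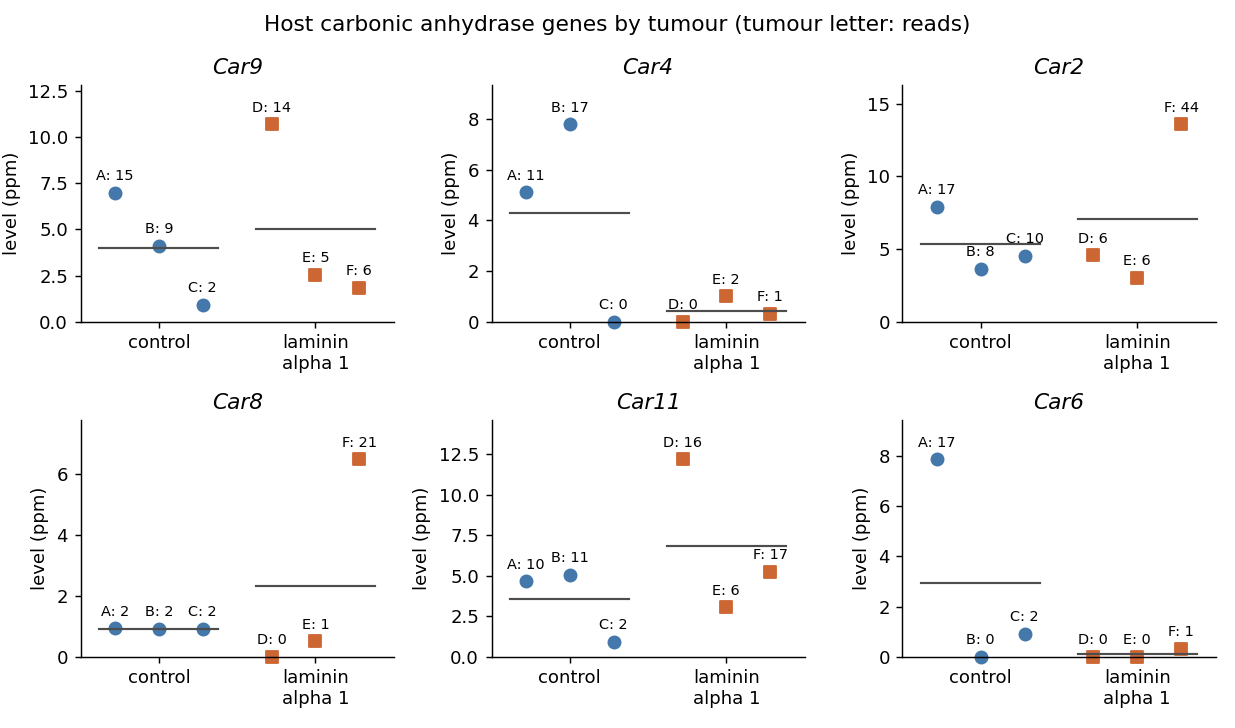
Levels in ppm of 6 host carbonic anhydrase genes in each control tumour (A to C, circles) and each laminin alpha 1 tumour (D to F, squares), with the reads behind each level beside the tumour's letter and a line at the group mean. The groups overlap in each panel, with F highest for Car2 and Car8, D highest for Car9 and Car11, and A highest for Car6.

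The other low family members were also uneven between tumours. Car8, the inactive relative, had 2, 2 and 2 reads in A, B and C and 0, 1 and 21 reads in D, E and F. Its 21 reads came from the same tumour as the high Car2 value. Car11, a secreted inactive relative, had 10, 11 and 2 reads in control tumours and 16, 6 and 17 reads in laminin tumours. Car6, the secreted enzyme of saliva, had 17, 0 and 2 reads in A, B and C and 0, 0 and 1 reads in D, E and F. Of its 19 control reads 17 were in A.

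For Car12 only the laminin tumours could be separated, with 10, 2 and 6 reads in D, E and F. Car7 and Car15 had 1 read each in the laminin tumours, against 3 and 5 reads in control tumours. Car14 was listed at 0 in laminin tumours and at 0.850 ppm in control tumours, a value that was no sum of whole reads. Car5a and Car10 were listed at 0 in both groups. In each of the 9 family genes whose reads were worked out in both groups, the levels of control and laminin tumours overlapped. Among the 5582 mouse genes whose reads could be worked out in this way, all of them low, the groups did not overlap for 7.43%.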

How the data were processed

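RNA of 6 tumours, 3 per group, was sequenced from oligo-dT purified mRNA, per the labels' protocols. TopHat2 and Cufflinks, and hg38 and mm10 as builds, appear in the submitters' processing notes. How reads of the species were separated is not stated there. The authors deposited 1 signal value per gene and group, with a scale that is not stated, summing to 893.067 and 890.561 (human) and 968.943 and 951.036 (mouse) in units of 1000000. Per the file headers, the authors also deposited a log2 ratio and a p-value, and in the mouse table a q-value and a test score. Only 16.1% of 30738 human genes overlapped their GRCh38 position in RefSeq, so human coordinates are not printed. Mouse coordinates are those of the file and were not checked.

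Levels were divided by the mean of both groups' sums. Human p-values were adjusted by Benjamini-Hochberg (numpy 2.4.6, pandas 2.3.3). Reads per tumour were worked out for values of up to 60 reads, within 0.6 of the last of 6 digits. A unique combination was found for 91.6% and 91.4% of the mouse values tried (control and laminin) and for 63.3% and 65.0% of the human values. The method was tested on simulated sums of whole reads. Values that are no such sum, like those of CA1, were not part of that test. Exact binomial (Clopper-Pearson) intervals used scipy 1.17.1. The smallest p of the authors' test, 5e-05, is shared by 1067 human genes and by 301 mouse genes. Nothing says more of the tumours than that they were independent. The genes described, the lists and the alternatives were chosen with earlier results of these data known, and of each list up to 6 called genes are named. The tests are the authors' own, since the tables hold no value per tumour. 1 gene of the erythroid marker list is not reported here, and 2 other symbols of that list and 1 of the macrophage list matched no entry and were not analysed here.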

Additional observations from a re-analysis of the deposited data

How the results depend on the processing

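The counts of called genes were 2 of 6 human and 1 of 4 mouse. They stayed the same when the adjustment was limited to genes of 1 ppm or 5 ppm or more. The Benjamini-Yekutieli adjustment also left them unchanged. Centring ratios on the median of all tested genes and summing all entries of a symbol could not change them. Centring leaves the p-values as they are, and each gene described in full had 1 entry. The mouse count was the same in the other copies of the table, the first of which holds the same values. Adding 1 or 5 ppm to both levels cannot turn a direction. It shrank low genes, CA1 from a log2 ratio of 0.90 to 0.24 and Car4 from -3.29 to -1.88 with 1 ppm. Leaving out 1 tumour at a time, an alternative chosen after seeing the data, gave log2 ratios of -0.50 to 0.78 for Car2, -4.80 to -2.54 for Car4 and -0.87 to 1.00 for Car9. Car2 turned to -0.50 without F, and Car9 to -0.87 without D and to -0.14 without C. The calls themselves could not be repeated without 1 tumour, since CA12, CA2 and Car3 have only group values. No paired analysis was possible because the labels number no replicates and the tumours behind the tables cannot be matched to samples. Host genes near 1 read per tumour are at the limit of this depth.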
